A study of Mus musculus with 4 samples.

Results

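The 10 genes described here mark interneurons by a peptide, a calcium-binding protein or a transmitter enzyme: Sst, Npy, Vip, Cck, Pvalb, Calb1, Calb2, Nos1, Chat and Th. They were chosen by name out of 21887 protein-coding genes of the RefSeq table for GRCm38.p6, with earlier results of these data known. Each was set against 1 deposited list of 7484 peaks on mm10, the same build as GRCm38. A peak belonged to a gene when its summit, the position of highest signal, lay in the gene span or within 30 kb of it on either side. By that rule 3 peaks were found, at 2 of the 10 genes, while 32.4% of all protein-coding genes had a peak.

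Chromatin came from mouse striatum, with 3 immunoprecipitated (IP) fractions and 1 input. The title gives the animals as Gad2Cre crossed with ThraGS, so both alleles were present in all libraries, and the protein recovered is GS-TRa1. The GS tag was held on IgG-coated magnetic beads, and the input had no antibody. TRα1 is a nuclear receptor for thyroid hormone encoded by Thra, and Gad2 encodes a GABA-synthesising enzyme whose Cre driver acts in GABAergic neurons. Animals without the tag or without Cre were not analysed here. The age and number of animals, and whether fractions came from separate animals, are not given in the sources used here. A peak list holds no expression values, so the labelled tissue could not be checked against its markers, and the list gives no spread between fractions.

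Interneurons of the striatum are a minority beside the GABAergic projection neurons, and they are told apart by the genes listed above. Parvalbumin cells fire fast and inhibit projection neurons close to the cell body. Cells with somatostatin and neuropeptide Y often also make nitric oxide, calretinin (Calb2) marks a further group, and Chat marks the large cholinergic interneurons. Thyroid hormone receptors bind DNA mostly as partners of retinoid X receptors, typically at a pair of AGGTCA elements spaced by 4 bases, called DR4. Thyroid hormone is known to act on the maturation of parvalbumin cells.

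Promoter sequence is shown for the marker with the highest peak in its window and for a peptide receptor gene whose promoter lies partly in a peak. The first is the 250 bases before the upper RefSeq start of Pvalb (chr15:78206401-78206650, minus strand, GRCm38.p6). Capitals mark 16 bases that match DR4 on the opposite strand at 10 of its 12 fixed bases, from 232 to 217 bases before the start. The second is the 250 bases before the start of Sstr4, a somatostatin receptor gene (chr2:148395127-148395376, plus strand, GRCm38.p6), and there capitals mark the 164 bases that lie inside a peak.
Pvalb: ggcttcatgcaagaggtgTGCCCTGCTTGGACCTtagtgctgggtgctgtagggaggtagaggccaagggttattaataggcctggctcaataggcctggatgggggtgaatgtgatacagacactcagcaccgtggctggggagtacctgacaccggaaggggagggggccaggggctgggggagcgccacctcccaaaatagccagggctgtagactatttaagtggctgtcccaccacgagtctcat
Sstr4: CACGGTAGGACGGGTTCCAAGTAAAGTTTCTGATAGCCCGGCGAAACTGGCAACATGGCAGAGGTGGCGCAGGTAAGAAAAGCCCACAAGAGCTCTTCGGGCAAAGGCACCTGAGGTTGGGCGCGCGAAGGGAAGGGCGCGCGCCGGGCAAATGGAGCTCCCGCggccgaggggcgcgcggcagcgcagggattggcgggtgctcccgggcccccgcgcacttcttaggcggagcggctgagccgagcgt

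RefSeq promoters of 300 bases, 250 before and 50 after each start, were held for 8 of the 10 markers, as 9 promoters since Pvalb has 2. Calb1 and Calb2 had no entry. None of the 9 was overlapped by a peak. The share of all promoters overlapped by a peak was not analysed here, so that count has no background. The motif AGGTCA, searched on both strands, was in none of these 9 promoters, against 16.3% of the 32851 promoters in the table. The exact DR4, which is AGGTCA followed by any 4 bases and a second AGGTCA on either strand, was in none of the 9 and in 0.0152% of all promoters. With up to 2 mismatches in the fixed bases, 1 of the 9 held it, the Pvalb promoter shown above, against 3.02% of all. These matches describe letters in a window and do not show a bound site. The Pvalb match lay outside any peak of the list.

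The calcium-binding proteins held all 3 peaks of the marker windows. A peak in the window was found for 2 of 10 markers, and for 32.4% of all protein-coding genes under the same rule. The difference between these shares was not tested, and its direction turned with the window: the same 2 markers stood against 13.7% of genes for the span alone and 22.2% with 10 kb, and 6 of 10 markers against 54.0% with 100 kb. Spans of 10 to 50 kb, the class of Pvalb, Calb1 and Calb2, had a peak in 32.6% of genes. Genes under 10 kb, the class of Sst, Npy, Vip, Cck and Th, had one in 23.4%, and genes over 50 kb, the class of Nos1 and Chat, in 46.7%. The windows of the 10 markers covered 0.846 Mb with a peak density of 3.55 per Mb (0.731 to 10.4, a 95% exact Poisson interval for counting error only). The merged windows of all protein-coding genes held 3.96 per Mb, within that interval. Among the striatal cells that carried the tag, few cells with a bound site and weak binding in many cells cannot be told apart.

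**Figure D1:**
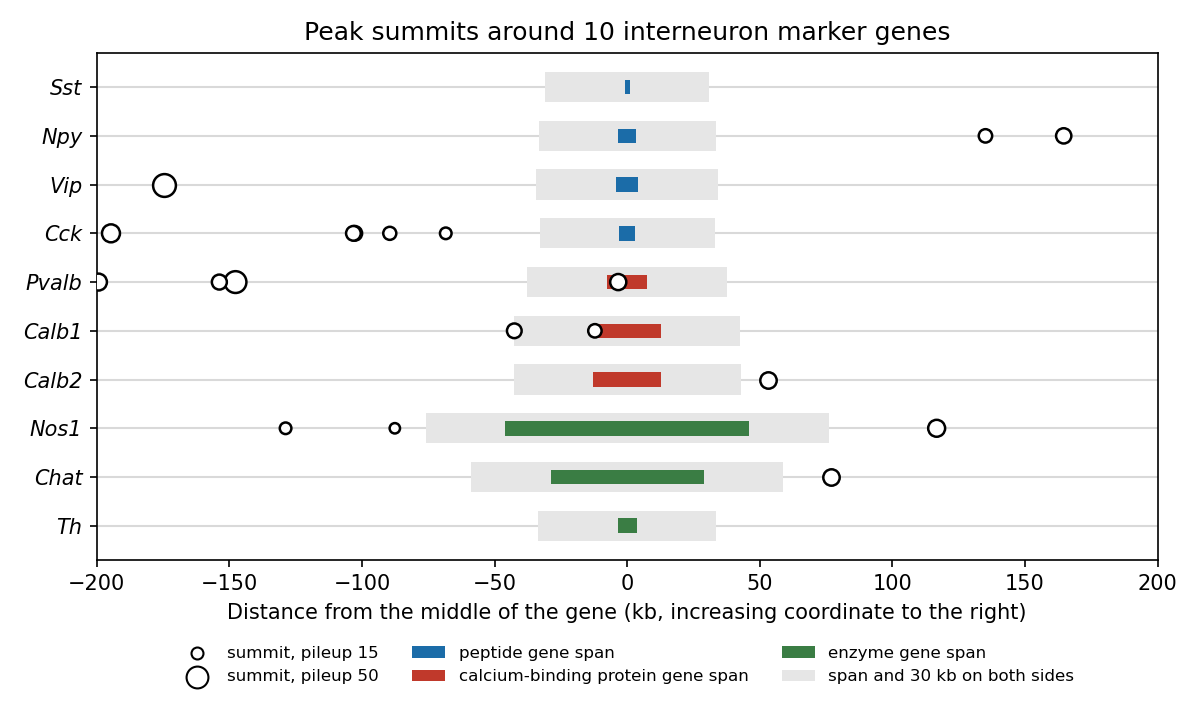
Peak summits within 200 kb of the middle of each marker gene (x axis, kb), 1 row per gene. Coloured bars are gene spans, grey bars the span with 30 kb on both sides, and circles summits with an area that grows with pileup. Summits fall on a grey bar in the rows of Pvalb and Calb1 only, and the rows of Sst and Th hold none.

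Pvalb encodes parvalbumin, an EF-hand protein that buffers calcium in fast-spiking cells. Its gene spans 78191112 to 78206400 on chromosome 15, on the minus strand. The peak lies inside it at 78195231 to 78195537, with the summit 4262 bp from the lower end, which on this strand is the end of the gene. From the 2 RefSeq starts of Pvalb the summit is 8863 and 11026 bp away. The summit had a pileup of 27.23, which is the authors' count of stacked fragments after 1 scale factor and stands for 29 fragments (exact Poisson interval 19.4 to 41.6). Over a background of 1.89, the lowest in the list, the fold enrichment was 9.77 and the −log10 q was 18.59. By fold it ranked 1828 of 7484, above 75.1% of the peaks. No other gene span held the summit, and the next summits were 140 kb below and 200 kb above the gene. Whether the summit falls in an exon or an intron was not analysed here.

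Calb1 encodes calbindin, a calcium buffer of many projection neurons and some interneurons. Its span on chromosome 4 is 15881264 to 15906709, and it had 2 peaks. The summit of one lay inside the gene, 534 bp from the lower end, in a peak from 15881685 to 15881908. There the pileup was 18.78, or 20 fragments (exact Poisson interval 12.2 to 30.9), with a fold of 6.85 and a −log10 q of 9.02. The other peak, at 15851247 to 15851538, lay outside the gene with its summit 29861 bp from the lower end, only 139 bp within the limit of the window. Its pileup was 22.54, or 24 fragments (15.4 to 35.7), with a fold of 7.22 and a −log10 q of 11.51. These 3 intervals overlap, so the heights at Pvalb and Calb1 were not separable by counting error. Both Calb1 peaks were near the middle of the list, above 47.4% and 53.6% of peaks by fold. In the numbering of the peaks, 1 number that could lie above the inner Calb1 peak, up to the next peak 2009970 bp beyond the gene, is not among the peaks used here.

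**Figure D2:**
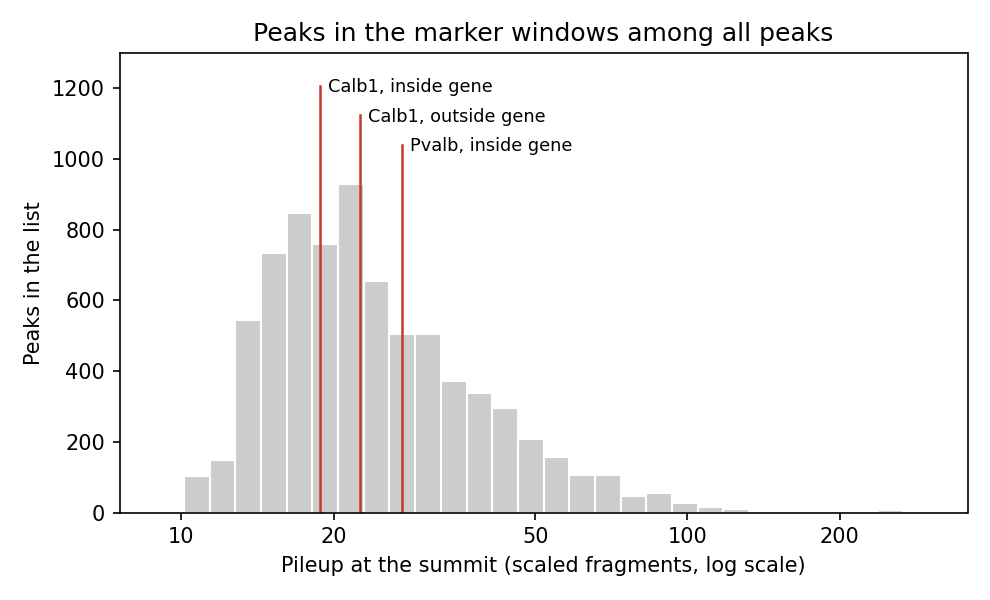
Pileup at the summit (x axis, log scale) of all 7484 peaks in bins, with the number of peaks on the y axis. Red lines stand at the 3 peaks of the marker windows, at 18.78, 22.54 and 27.23, on both sides of the median of 21.6 and far below the highest of 286.4.

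Calb2, the third of this group, encodes calretinin and had no peak in its window. Its nearest summit lay 40.3 kb above the gene with a pileup of 28.17 and a fold of 9.72. That summit was nearer to Cmtr2, an mRNA cap methyltransferase gene, at 6807 bp. It stood for 30 fragments (20.2 to 42.8), an interval that overlaps that of the Pvalb peak, so the 2 heights were not separable by counting error.

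The peptide genes had no peak within 30 kb, 0 of 4. All 4 have spans under 10 kb, a class in which 23.4% of genes had a peak. Sst encodes somatostatin, and its nearest summit was 326 kb above the gene, inside the non-coding gene Gm31814, with a pileup of 21.6. On the lower side of Sst the list held none for 1450713 bp. Npy encodes neuropeptide Y, with summits at 132 and 161 kb above it, of pileup 18.78 and 24.41, both outside any annotated gene. Vip encodes vasoactive intestinal peptide, and its nearest summit, 170 kb below, was the highest among the nearest summits of the 10 genes. It had a pileup of 54.46 (58 fragments) and a fold of 11.09, and it lay within Syne1, which encodes a nuclear envelope protein.

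Cck encodes cholecystokinin, and 5 summits lay within 200 kb, all below the gene and all inside Trak1, which encodes an adaptor for the transport of mitochondria. The nearest of them was at 65.5 kb, and it was also the lowest, with a pileup of 14.09 and a fold of 5.03. The highest, at 192 kb, had a pileup of 33.8 and a fold of 12.05, and it stood 569 bp from an end of Trak1. The peak at 86.6 kb overlapped a RefSeq promoter of Trak1. Above Cck the nearest summit was 343221 bp away.

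The enzyme genes likewise had no peak in their windows, 0 of 3, against 32.4% of all protein-coding genes. The share was 46.7% in the length class of Nos1 and Chat and 23.4% in that of Th. Nos1, the neuronal nitric oxide synthase gene, is the longest of the 10 at 92002 bp and held no summit inside its span. Over all protein-coding genes of any length, 13.7% held a summit inside the span. The summit nearest to Nos1, 41.6 kb below, had a pileup of 11.27 (12 fragments, 6.2 to 21.0) and a −log10 q of 2.74. A pileup below that value was found in 0.387% of all peaks. On the other side a summit at 70.7 kb had a pileup of 30.05 inside Tesc, which encodes the EF-hand protein tescalcin. The surroundings of Nos1 were the richest of the 10 markers, with 15 summits within 500 kb.

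Chat encodes choline acetyltransferase, and its span also holds Slc18a3, the vesicular acetylcholine transporter gene, which had no peak either. The nearest summit to Chat was 48.0 kb above, with a pileup of 28.17 and a fold of 10.01. It lay inside Ercc6, a DNA repair gene, 568 bp from an end of that gene. Th encodes tyrosine hydroxylase, the first enzyme of catecholamine synthesis. Its nearest summits were 923550 bp below, inside the kinase gene Brsk2, and 930187 bp above. Only 7.22% of protein-coding genes were farther from a summit than Th.

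**Figure D3:**
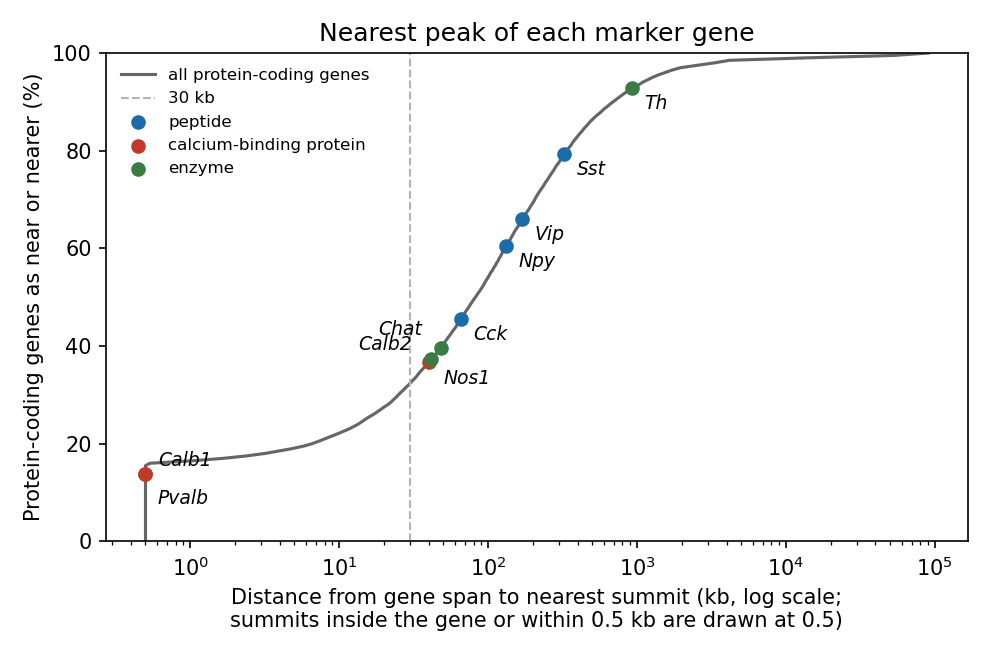
Distance from the gene span to the nearest summit (x axis, kb, log scale) against the percent of protein-coding genes as near or nearer (y axis). The line is all protein-coding genes and each point is 1 marker. Pvalb and Calb1 hold a summit inside the gene, as 13.7% of genes do, while Sst at 79.3% and Th at 92.8% lie far along the line.

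By distance the 10 markers spread over the range of all genes. The order from nearest to farthest was Pvalb and Calb1 at 0, then Calb2, Nos1, Chat, Cck, Npy, Vip, Sst and Th. Their median was 56.7 kb, against 82.0 kb for all protein-coding genes. A summit within 100 kb was found for 6 of 10 markers and for 54.0% of protein-coding genes. Within 500 kb the markers had 0 to 15 summits with a median of 3.5, and protein-coding genes a median of 4 with quartiles of 1 and 7. Th was the marker with none within 500 kb, which 13.7% of protein-coding genes share. Of the 8 markers without a peak in the window, 4 had their nearest summit inside another protein-coding gene. The share of all summits inside a protein-coding gene was not analysed here, so that count has no background. The pileups of those 8 nearest summits ran from 11.27 to 54.46.

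The lack of a peak depends on the signal a peak needed to be listed. Among the 2628 peaks whose background was within 1% of the lowest, the weakest had a pileup of 10.33, or 11 fragments, and a fold of 3.92. Over all 7484 peaks the lowest pileup was 9.39, or 10 fragments. These are the weakest peaks held and not a measured floor, so a marker without a peak is not shown to lack binding. The total reads of each library were not used here.

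Receptors for the marker peptides had peaks at 7 of 14 members, against 32.4% of all protein-coding genes. That direction turned in narrower windows, with 1 of 14 (7.14%) against 13.7% for the span alone and 3 of 14 (21.4%) against 22.2% with 10 kb. Of these 7, the strongest summit lay inside another protein-coding gene for 5, a count with no share over all genes beside it. Vipr2, a receptor gene for vasoactive intestinal peptide, had a pileup of 71.37 and a fold of 23.43. That summit was 29435 bp from Vipr2 and within Zfp386, 271 bp from an end of Zfp386. The peak overlapped a RefSeq promoter of Zfp386. Cckbr, a cholecystokinin receptor gene, had 28.17 at 25721 bp, inside Fam160a2 and 69 bp from an end of Cnga4. Npy1r, a neuropeptide Y receptor gene, held its summit inside the gene, with a pileup of 27.23 and a fold of 6.83. The summit was 209 bp from the lower end of the span and 64 bp from a RefSeq start of Npy1r. That peak covered 194 of the 250 bases before this start. The neighbouring Npy5r is counted from the same peak at 9264 bp.

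The somatostatin receptor genes Sstr3, Sstr4 and Sstr5 had peaks in their windows and Sstr1 and Sstr2 did not. The Sstr3 summit lay 10110 bp away inside Rac2, with a pileup of 14.09. That of Sstr5 lay 15190 bp away inside Tekt4, with a pileup of 15.96. Sstr4 had 2 peaks, and the weaker one is the peak over the promoter printed above. Its summit stood 339 bp before the Sstr4 start with a pileup of 15.02, or 16 fragments, and a fold of 5.34. The −log10 q was 5.92, and the pileup was below the median of 21.6 over all peaks. No AGGTCA lay in the 250 bases shown. Somatostatin itself thus had no summit nearer than 326 kb while Sstr4 had one 339 bp before its start. Npy likewise had none nearer than 132 kb while the Npy1r summit stood 64 bp from a start of that gene. These differences between single genes were not tested. The share of all genes with a summit as near a start was not analysed here.

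Other interneuron and neuropeptide genes had peaks at 4 of 17 members, 23.5%, against 32.4% of all protein-coding genes. Tacr1, the substance P receptor gene of several striatal interneuron types, held a summit of 28.17 inside its span. Cnr1, the cannabinoid receptor gene, had 26.29 at 21646 bp, and Reln, which encodes the matrix protein reelin, had 3 peaks with a highest pileup of 21.6 inside the gene. That Reln peak had a background of 5.0 and a −log10 q of 4.46. Its fold of 3.77 was above only 1.95% of peaks. Tac2, the neurokinin B gene, had 18.78 at 14312 bp, inside Zbtb39. Penk, Pdyn, Tac1, Pnoc, Cort and Crh, all peptide precursor genes, were among the 13 without a peak.

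EF-hand genes other than the markers had peaks at 13 of 22 members, 59.1%, over 22 distinct peaks, against 32.4% of all protein-coding genes. The count was 6 of 22 (27.3%) for the span alone, against 13.7%, and again 6 of 22 for peaks whose −log10 q was 10 or more, against 20.4%. Kcnip3, which encodes a calcium sensor of potassium channels, and Calm3, a calmodulin gene, each had a pileup of 42.26 and a fold of 14.97. These 2 summits lay at different loci, 9833 bp from Kcnip3 inside Prom2 and 26735 bp from Calm3 inside Pnmal1. S100b, a glial calcium-binding protein gene, had 30.05 at 6877 bp, and Necab1, a neuronal EF-hand gene, had 30.05 inside its span. Ocm, the oncomodulin gene and a close relative of Pvalb, had none.

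Genes of nitric oxide signalling had peaks at 9 of 14 members, 64.3%, against 32.4% of all protein-coding genes and 46.7% of those with spans over 50 kb. The count was 5 of 14 (35.7%) for the span alone, against 13.7%, and 5 of 14 above the median fold, against 19.8%. Nos3, the endothelial synthase gene, had 61.04 at 3768 bp with a fold of 21.48. Gucy1a2, a subunit gene of the nitric oxide receptor guanylate cyclase, held a summit of 60.1 inside its span, 800 bp from an end. Pde1b and Pde2a, cyclic nucleotide phosphodiesterase genes, had 4 and 6 peaks, with highest pileups of 55.4 and 35.68. The Pde1b summit lay inside Nckap1l, and Gucy1a1 and Gucy1b1 share their strongest peak. This list has a median span of 90.7 kb against 17.2 kb for all protein-coding genes, and longer spans give wider windows. The part of length in its count was not tested.

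Acetylcholine genes had peaks at 6 of 13 members, 46.2%, against 32.4% of all protein-coding genes, and at 2 of 13 (15.4%) for the span alone, against 13.7%. Lynx1, which encodes a modulator of nicotinic receptors, had 79.82 at 26831 bp, 209 bp from an end of Them6. Inside their own spans lay the strongest summits of the muscarinic receptor gene Chrm3, at 36.62, and the nicotinic subunit gene Chrna7, at 31.93. Chrm5 had 24.41 at 10713 bp, inside Emc7. Slc5a7, the choline transporter gene, had none.

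Catecholamine genes had peaks at 4 of 11 members, 36.4%, near the 32.4% of all protein-coding genes, and at 0 of 11 for the span alone, against 13.7%. Dbh, which makes noradrenaline from dopamine, had 43.19 at 18474 bp, and Ddc, the decarboxylase gene that follows Th in the pathway, had 37.56 at 3158 bp. The Dbh summit lay inside the non-coding gene Dbhos and was nearer to Fam163b, 4556 bp from an end of it. Pnmt, which makes adrenaline from noradrenaline, had 18.78 at 7360 bp, inside Stard3. Slc6a3 and Slc18a2, the dopamine and vesicular transporter genes, had none. Genes of parvalbumin cells had peaks at 3 of 9 members, 33.3%, near the same 32.4%. The direction turned with the setting, at 2 of 9 (22.2%) against 13.7% for the span alone. For peaks whose −log10 q was 10 or more it was 1 of 9 (11.1%) against 20.4%. This list has a median span of 71.3 kb, and 46.7% of genes over 50 kb had a peak. The 3 with a peak were Tacr1, the potassium channel gene Kcnc1 at 17.84 and Cplx1, a complexin gene of transmitter release, at 12.21. The Cplx1 peak overlapped the Cplx1 promoter but was among the weakest listed. Its fold was 3.3, rank 7413 of 7484, and its −log10 q was 1.77. Over all 7 lists, 45 of 98 genes had a peak, 45.9%, against 32.4% of all protein-coding genes. Of the 98, 2 were in more than 1 list, and some neighbouring genes share a peak. The 98 had a median span of 25.8 kb, against 17.2 kb for all protein-coding genes, and the part of length was not tested.

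**Figure D4:**
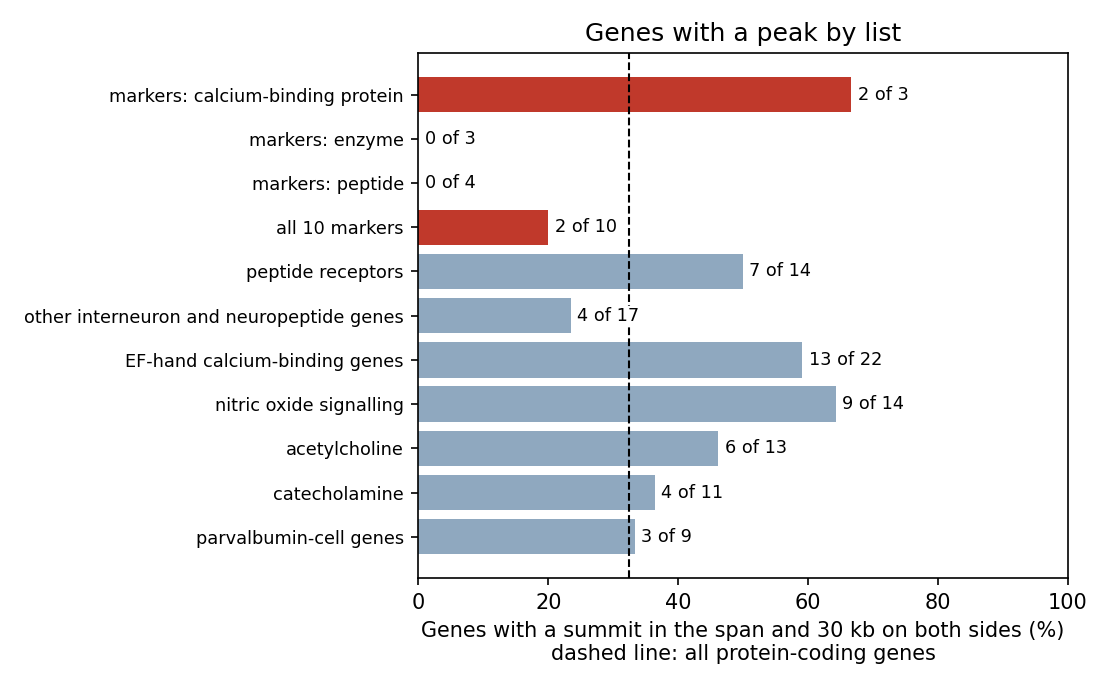
Percent of genes with a summit in the span or within 30 kb (x axis) for the markers by role (red) and for 7 neighbouring gene lists (blue), with counts beside each bar. The dashed line is the 32.4% of all protein-coding genes. The peptide and enzyme markers stand at 0 of 4 and 0 of 3, and nitric oxide signalling is highest of the 7 lists at 9 of 14.

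Short marker lists of other cells were counted in the same window, where 32.4% of all protein-coding genes had a peak. Projection neuron markers had peaks at 5 of 6 genes and oligodendrocyte markers at 3 of 4. The strongest summit lay inside the marker gene itself for 1 of those 5 and 1 of those 3. It lay inside another protein-coding gene for 1 in each list. No share over all genes was analysed for these placements. Microglia markers reached 1 of 4, and astrocyte and cortical glutamatergic markers 0 of 4 each. A peak does not measure expression, and the part of cell number in these counts was not tested. Of the genes with engineered alleles, Gad2 had 1 peak, inside the gene, and Thra had 4 in its window. The highest pileup of the 4, 47.89, lay 4989 bp outside Thra and inside Nr1d1.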

How the data were processed

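The series has 3 IP fractions and 1 input of mouse striatum, grouped from the labels. The submitters' processing notes name MACS2 2.1.1.20160309.0 and Bowtie2 2.3.4.2, with mm10 and GRCm38 as builds, and give no role or setting. The sources used here do not say whether fractions were pooled before peaks were called. The authors deposited for each peak a pileup signal, a fold enrichment (a linear ratio to local background) and −log10 of the p-value and q-value, per the file headers.

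The background was computed as (pileup + 1) / fold − 1, and fragments as pileup divided by the grid step of 0.939. Summits were placed against RefSeq GRCm38.p6 gene spans extended by 30 kb. Peak numbers run to 7653, and 169 of them are not among the 7484 peaks. Counting intervals are 95% exact Poisson and cover counting error only. With 1 list there is no replicate error, and no test was made. Python 3.11.15, pandas 2.3.3, scipy 1.17.1 and matplotlib 3.10.9 were used, and the window counts were tested on simulated data. RefSeq supplied the promoters. The named genes are the 10 markers, the genes at their peaks, up to 4 genes with the highest pileup per list, Thra and Gad2. The values of 1 list gene are not reported here. Others, such as those named as lacking a peak, were chosen after their values were seen. Members and lists were chosen with earlier results of these data known. Alternatives changed the window, the peak threshold, the way a peak is placed, the background filter, gene length class and motif.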

Additional observations from a re-analysis of the deposited data

How the results depend on the processing

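Pvalb and Calb1 were the markers with a peak in 7 of the 8 alternatives for windows and peaks. With 100 kb the markers rose to 6 genes with 11 summits, adding Calb2, Nos1, Chat and Cck, and protein-coding genes to 54.0%. The place of Calb1 rests on a different peak in different settings. With a −log10 q of at least 10, or above the median fold, its inner peak is left out and the one 29861 bp away remains. With the span alone or 10 kb, the distant one is left out.

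The percent of protein-coding genes was 13.7% for the span alone, 20.4% for peaks whose −log10 q was 10 or more and 19.8% above the median fold. In list order (peptide receptors, other interneuron, EF-hand, nitric oxide, acetylcholine, catecholamine), the span alone gave 1, 2, 6, 5, 2 and 0 genes. With 10 kb, peptide receptors gave 3 and other interneuron genes 2. With 100 kb, other interneuron genes gave 8 and catecholamine genes 7. Gene ends only gave other interneuron genes 2. With a −log10 q of at least 10, other interneuron genes gave 2, EF-hand 6 and parvalbumin-cell genes 1. Above the median fold, peptide receptors gave 3, other interneuron genes 1, EF-hand 7, nitric oxide 5 and parvalbumin-cell genes 1. DR4 with up to 2 mismatches was in a promoter of 1 marker in place of 0 for AGGTCA. In all, 26 values moved by over 1.5 times and 59 did not. Fewer peaks or narrower windows enter the settings with lower counts by construction.

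No paired analysis was possible because the result comes from 1 list with no value per library, and leaving out a fraction was not run for the same reason.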
